A study of Mus musculus with 9 samples.

Results

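The 50 listed genes of the DNA replication machinery were followed in MyC-CaP cells, a mouse prostate cancer line that responds to androgen, during treatment with asporin (ASPN), which stromal fibroblasts of tumors secrete. The 50 members were found by their symbols among the 15384 protein-coding genes of the count table, and all 50 were present. The cells had been deprived of serum and calcium and then received 100 ng/mL recombinant mouse ASPN, and RNA-Seq libraries were made at 0, 12 and 24 hours with 3 biological replicates at each time. Although the 0 hour libraries are also labelled as treated with ASPN, they are called time 0 here, as the study uses them. No library of cells kept for 12 or 24 hours without ASPN was analysed here. The action of ASPN and the hours in culture after starvation therefore cannot be told apart in any comparison between times. The line is 1 line derived from a prostate tumor with a Myc transgene, so the replicates are cultures of the same cells.

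The libraries held 41881191 to 52993821 counts, so that a gene with 3 counts was at 0.0566 to 0.0716 CPM (counts relative to the scaled library total). The factors of the TMM scaling (trimmed mean of M-values, which corrects for a few genes that take many reads) ran from 1.04 to 1.07 for time 0, from 1.04 to 1.05 for 12 hours and from 0.898 to 0.911 for 24 hours. The epithelial genes Cldn3 and Krt8 and the prostate gene Hoxb13 had means of 609, 25.5 and 71.8 CPM at time 0. The epithelial markers Epcam, Cdh1 and Cldn7 had a mean under 0.1 CPM at every time. Of the immune, endothelial and fibroblast markers, Cd68 had 0.543 CPM and Pdgfra 13.2 CPM at time 0 (9.27 CPM at 24 hours), and Lyz2, Cd3e, Pecam1, Cdh5, Col1a1 and Pdgfrb were at or near 0.

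Replication is prepared in G1, when the origin recognition complex with CDC6 and CDT1 loads the ring of MCM2 to MCM7 on DNA. In S phase the kinase CDC7 with DBF4, together with CDC45 and the GINS complex, turns this ring into the active helicase, primase and the polymerases copy both strands on a clamp made of PCNA, and ribonucleotide reductase and the thymidylate enzymes supply the nucleotides. Transcription of many of these genes is known to be driven by the E2F factors, which RB proteins hold back until cells commit to S phase.

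The replication genes were near their time 0 level after 12 hours and were mostly higher after 24 hours. At 24 hours against time 0, 24 of the 50 members were differentially expressed (adjusted p-value of 0.05 or less and at least a 1.5-fold change), all of them higher, where 12% of the 11444 tested genes were called higher and 16.8% lower (28.8% in all). With the adjusted p-value alone 40 members were higher and 3 lower, where 34.4% of the tested genes were higher and 36.5% lower (70.9% in all). The median log2 fold change was 0.56 over the 50 members and -0.02 over all tested genes, and 45 of the 50 members lay above 0. The largest increases were those of Orc1 (1.43), Gins2 (1.36) and Prim1 (1.17), and the lowest value was that of Rpa1 (-0.21). At 12 hours no member was called, against 1.5% of the 11410 tested genes higher and 0.0964% lower (1.6% in all). Summed over the 50 genes, libraries of time 0 held 2158 to 2313 CPM, those of 12 hours 2173 to 2316 CPM and those of 24 hours 2919 to 2995 CPM, so that each library of 24 hours lay above the other 6 libraries. More mRNA in each cell and a larger share of cells in late G1 or S phase cannot be told apart in bulk RNA. When libraries were scaled by their total counts in place of TMM, 14 members were called at 24 hours, where 698 of the 11444 tested genes were called higher and 3008 lower. The median over the members was then 0.34 and that over all tested genes -0.24, which left the members 0.58 above all genes as before.

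**Figure D1:**
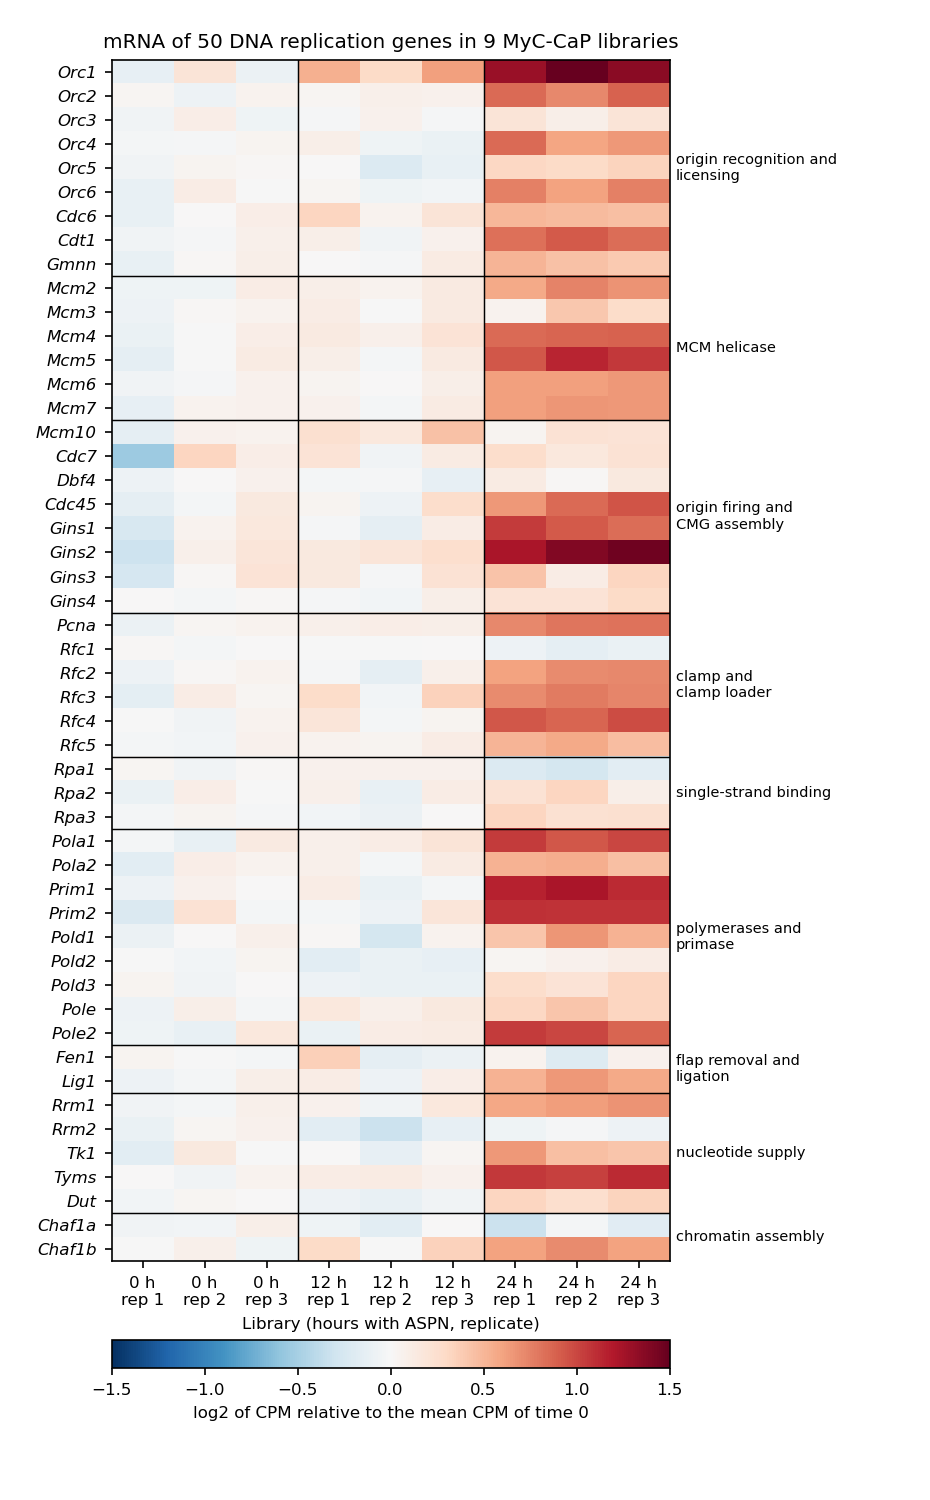
Level of each of the 50 replication genes (rows, grouped by role) in the 9 libraries (columns), as log2 of the CPM relative to the mean CPM of time 0, in blue below and red above it. The columns of 0 and 12 hours are pale with single exceptions such as Orc1, whereas at 24 hours Orc1, Gins2, Prim1 and Prim2 are the darkest rows and Rpa1, Rfc1, Rrm2, Fen1 and Chaf1a stay pale or blue.

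The promoters of these genes were searched for the letters TTTNNCGC, the shape of E2F binding sites, on both strands, so that overlapping matches on opposite strands were counted separately. The windows are RefSeq windows of GRCm38.p6 that run from 250 bases before to 50 bases after the transcription start. A window was found for 42 of the 50 members, and 16 of the 42 (38.1%) held the letters. The same letters were in 10.1% of the 9144 tested genes with a window and in 5.17% of all 32841 windows. Among the members called higher at 24 hours 9 of 19 with a window held them (47.4%), and among the members not called 7 of 23 did (30.4%). The windows of Orc1 and Prim1, from the 4 genes with the largest increases, and of Rpa1, the gene with the lowest value, are printed 5′ to 3′ on the gene's strand, with matches in capitals, to show what a match looks like and that a strong increase also occurred without one. The windows of Mcm5, Mcm6 and Mcm3 were added after their matches were seen, because these 3 subunits of the same helicase differ in their increase and all hold 2 or 3 matches. The coordinates are chr4:108579204-108579503 (plus strand) for Orc1, chr10:128014965-128015264 (plus) for Prim1, chr11:75348334-75348633 (minus) for Rpa1, chr8:75109259-75109558 (plus) for Mcm5, chr1:128359656-128359955 (minus) for Mcm6 and chr1:20820263-20820562 (minus) for Mcm3.
Orc1: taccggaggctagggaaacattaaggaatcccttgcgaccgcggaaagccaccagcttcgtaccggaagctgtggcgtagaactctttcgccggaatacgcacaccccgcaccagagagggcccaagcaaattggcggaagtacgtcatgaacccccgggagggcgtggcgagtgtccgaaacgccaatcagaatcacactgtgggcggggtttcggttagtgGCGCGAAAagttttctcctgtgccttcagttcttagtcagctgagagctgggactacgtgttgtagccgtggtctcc
Prim1: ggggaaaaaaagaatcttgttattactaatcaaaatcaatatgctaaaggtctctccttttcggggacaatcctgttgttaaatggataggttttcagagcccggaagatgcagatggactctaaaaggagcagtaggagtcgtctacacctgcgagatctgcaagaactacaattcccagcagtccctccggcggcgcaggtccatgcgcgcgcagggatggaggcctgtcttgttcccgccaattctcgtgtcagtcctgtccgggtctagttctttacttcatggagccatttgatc
Rpa1: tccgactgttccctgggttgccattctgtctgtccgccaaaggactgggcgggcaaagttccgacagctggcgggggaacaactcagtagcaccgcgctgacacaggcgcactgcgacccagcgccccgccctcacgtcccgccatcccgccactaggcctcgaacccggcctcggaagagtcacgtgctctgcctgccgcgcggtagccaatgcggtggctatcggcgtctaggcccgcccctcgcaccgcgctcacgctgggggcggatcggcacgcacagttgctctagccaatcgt
Mcm5: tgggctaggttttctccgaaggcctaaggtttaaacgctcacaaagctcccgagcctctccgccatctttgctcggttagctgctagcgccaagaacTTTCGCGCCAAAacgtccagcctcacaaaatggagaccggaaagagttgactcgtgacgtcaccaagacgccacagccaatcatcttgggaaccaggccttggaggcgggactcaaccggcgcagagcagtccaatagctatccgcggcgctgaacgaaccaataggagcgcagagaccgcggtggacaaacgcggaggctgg
Mcm6: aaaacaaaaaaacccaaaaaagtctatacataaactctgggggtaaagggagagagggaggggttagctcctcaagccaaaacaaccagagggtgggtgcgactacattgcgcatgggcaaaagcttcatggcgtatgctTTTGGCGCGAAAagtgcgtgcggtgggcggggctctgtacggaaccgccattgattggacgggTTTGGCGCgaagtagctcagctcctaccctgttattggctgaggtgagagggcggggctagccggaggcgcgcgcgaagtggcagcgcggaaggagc
Mcm3: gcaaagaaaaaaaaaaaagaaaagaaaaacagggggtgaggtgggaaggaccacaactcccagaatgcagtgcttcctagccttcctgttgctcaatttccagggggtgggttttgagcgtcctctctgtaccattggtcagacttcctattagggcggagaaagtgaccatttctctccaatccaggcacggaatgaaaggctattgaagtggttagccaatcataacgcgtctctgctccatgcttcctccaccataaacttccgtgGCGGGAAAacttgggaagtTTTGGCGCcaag
The Orc1 window holds 1 match, at 27 to 20 bases before the start, on the strand opposite to the gene. The 2 matches of Mcm5 overlap on opposite strands from 153 to 142 bases before the start, and Mcm6 has such an overlapping pair from 110 to 99 bases and a single match from 47 to 40 bases before it. In Mcm3, which did not reach 1.5-fold, the 2 matches lie after the start. Prim1 and Rpa1 have none in this window, which says only that these letters are not in it. Gins2 and Prim2, which are also among the 4 largest increases, have no window in the table, and neither have Gmnn, Mcm4, Gins1, Gins4, Rfc2 and Pole. The share of called and of not called members with a match is a description and was not tested.

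**Figure D2:**
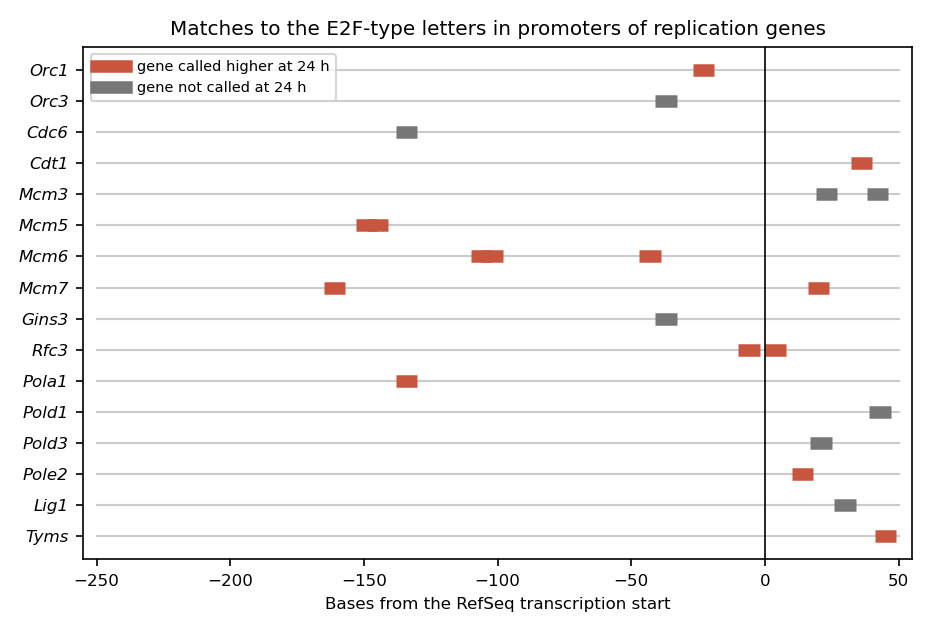
Positions of TTTNNCGC matches on either strand (blocks of 8 bases) in the windows of the 16 replication genes that hold at least 1, in bases from the RefSeq transcription start, colored by the call at 24 hours. Mcm6 has 3 matches, Mcm3, Mcm5, Mcm7 and Rfc3 have 2 each, and matches lie on both sides of the start in called genes and in genes not called.

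Of the 9 genes that mark and license origins, 5 were called higher at 24 hours (Orc1, Orc2, Orc4, Orc6 and Cdt1), where 12% of all tested genes were, and all 9 had an adjusted p of 0.05 or less, as had 70.9% of all tested genes. Orc1 encodes the largest subunit of the origin recognition complex and is the subunit whose transcription is known to follow the cell cycle. Orc1 mRNA (ENSMUSG00000028587.18, chromosome 4, 108579423 to 108614833) was at 5.97, 7.39 and 6.08 CPM in the libraries of time 0, at 9.40, 7.91 and 9.90 CPM at 12 hours and at 16.0, 19.7 and 16.6 CPM at 24 hours. No library of one time overlapped those of another, with means of 6.48 ± 0.79, 9.07 ± 1.0 and 17.4 ± 2.0 CPM (SD, n = 3). The log2 fold change at 24 hours was 1.43 (SE 0.11, adjusted p = 7.4e-08, edgeR quasi-likelihood, Benjamini-Hochberg), the largest of the 50 members. The other called subunits rose less, Orc2 by 0.82, Orc6 by 0.71 and Orc4 by 0.70 on the log2 scale, and after a correction for exonic length and GC content Orc6 (0.57) and Orc4 (0.45) fell short of 1.5-fold, as they did with total counts (0.49 and 0.48). Orc3, a core subunit, had the lowest value of this role, with 31.8, 35.3 and 31.6 CPM at time 0 and 37.6, 34.9 and 37.7 CPM at 24 hours, ranges that overlap. Its log2 fold change of 0.16 (SE 0.06, adjusted p = 0.030, the same test) changed sign under total-count scaling (-0.06) and under the length and GC correction (-0.04).

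Cdt1, which brings the MCM ring to origins, rose from 46.4 ± 2.1 to 84.5 ± 3.0 CPM (SD, n = 3; log2 fold change 0.86, SE 0.05, adjusted p = 4.3e-09, edgeR quasi-likelihood, Benjamini-Hochberg). Gmnn encodes geminin, which binds CDT1 and blocks a new round of licensing, and its increase from 20.98 ± 1.5 to 28.7 ± 1.2 CPM (log2 fold change 0.45) stayed under 1.5-fold. The log2 ratio of Cdt1 to Gmnn within a library ran from 1.11 to 1.21 at time 0, from 1.09 to 1.22 after 12 hours and from 1.46 to 1.62 after 24 hours. Each library of 24 hours therefore held more Cdt1 relative to Gmnn mRNA than each earlier library. Cdc6, the ATPase that completes the licensing complex, was at 11.5 ± 0.83 CPM at time 0 and 16.0 ± 0.30 CPM at 24 hours (log2 fold change 0.48), and Orc5 had 0.31.

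All 6 genes of the MCM2-7 helicase had an adjusted p of 0.05 or less and a higher mean at 24 hours than at time 0, as had 34.4% of all tested genes, and 5 of them were called (12% of all tested genes). Mcm5 (ENSMUSG00000005410.6, chromosome 8, 75109569 to 75128439) rose most, from 48.1, 52.3 and 57.4 CPM at time 0 to 100.4, 115.7 and 109.5 CPM at 24 hours. With 51.7 to 57.9 CPM the libraries of 12 hours overlapped those of time 0, and the log2 fold change at 24 hours was 1.05 (SE 0.07, adjusted p = 1.3e-08, edgeR quasi-likelihood, Benjamini-Hochberg). Mcm4 went from 42.8, 45.6 and 48.8 CPM to 82.1, 83.7 and 84.6 CPM (log2 fold change 0.87). Mcm2, Mcm7 and Mcm6 followed with log2 fold changes of 0.66 (SE 0.06), 0.64 (SE 0.05) and 0.63 (SE 0.04), from 54.4 ± 3.9, 93.8 ± 6.9 and 82.7 ± 3.7 CPM to 85.9 ± 5.3, 146.1 ± 2.3 and 127.7 ± 1.6 CPM (SD, n = 3). Under total-count scaling these 3 were at 0.44, 0.42 and 0.40 and lost their call. Mcm3 alone did not reach 1.5-fold, with 65.7, 70.5 and 72.3 CPM at time 0 and 71.97, 92.2 and 84.1 CPM at 24 hours. The first library of 24 hours lay within the range of time 0, and the log2 fold change was 0.25 (SE 0.07, adjusted p = 0.0077).

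Because the 6 subunits form 1 ring, their levels were also compared per kilobase of exon within a library, a measure that a scaling factor per library does not affect. Mcm3 made up 20.3% ± 0.29 of the summed MCM level at time 0, 20.4% ± 0.25 at 12 hours and 15.2% ± 1.2 at 24 hours (SD, n = 3). Mcm5 made up 14.4% ± 0.42, 14.4% ± 0.23 and 18.7% ± 0.50, and Mcm4 14.0% ± 0.10, 14.6% ± 0.058 and 16.1% ± 0.55. The shares of Mcm2 (8.58% and 8.50%), Mcm6 (19.4% and 18.9%) and Mcm7 (23.3% and 22.7%) at time 0 and at 24 hours differed by less than 1 percentage point. The log2 ratio of Mcm5 to Mcm3 was -0.45, -0.43 and -0.33 at time 0, -0.43, -0.42 and -0.40 at 12 hours and 0.48, 0.33 and 0.38 at 24 hours, so that Mcm5 passed from below to above Mcm3 in counts. With 3 libraries against 3, an exact permutation test cannot give a p below 0.1, and the pairs of genes compared as ratios were chosen after their values were seen, so no p is given for them.

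Of the 8 genes that fire origins and complete the helicase, 3 were called higher (Gins2, Gins1 and Cdc45), where 12% of all tested genes were. Gins2 (ENSMUSG00000031821.11, chromosome 8, 120578633 to 120589304) encodes a subunit of the 4-membered GINS ring. It was at 6.76, 8.83 and 9.47 CPM at time 0, at 9.23, 9.50 and 9.92 CPM at 12 hours and at 19.5, 21.9 and 23.0 CPM at 24 hours, all of the last above all others. Its log2 fold change was 1.36 (SE 0.11, adjusted p = 1.6e-07, edgeR quasi-likelihood, Benjamini-Hochberg). The exons of Gins2 share 67.3% of their bases with the gene Gse1 on the opposite strand, whose own log2 fold change at 24 hours was -0.48, and whether reads were counted by strand is not given in the sources used here, so that reads of the pair may not be told apart. Gins1 rose from 5.35 ± 0.73 to 10.2 ± 0.73 CPM (log2 fold change 0.93). The other GINS genes, Gins3 (0.29) and Gins4 (0.23), were not called, and the log2 ratio of Gins2 to Gins3 was 1.32 to 1.43 at time 0 and 2.16 to 2.64 at 24 hours. Cdc45, the partner of GINS in the active helicase, rose from 15.1 ± 1.5 to 26.7 ± 2.7 CPM (log2 fold change 0.82).

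The kinase that fires origins gave no call. Dbf4, its activating subunit, had the lowest value of this role, with 37.1, 39.1 and 41.0 CPM at time 0 and 42.6, 39.4 and 43.1 CPM at 24 hours, and its log2 fold change was 0.09 (SE 0.06, adjusted p = 0.16, edgeR quasi-likelihood, Benjamini-Hochberg). Cdc7, the catalytic subunit, was at 6.16, 11.2 and 9.60 CPM at time 0, the widest spread of the 50 genes at that time (coefficient of variation 28.7%), and its log2 fold change of 0.21 (SE 0.16) was 0.022 without the first and 0.40 without the second library of time 0. Mcm10, a factor that helps the helicase to start, was at 10.3 ± 0.79, 12.6 ± 1.3 and 11.5 ± 0.76 CPM (SD, n = 3), the highest of the 3 times being 12 hours. Under total-count scaling Dbf4 (-0.13), Cdc7 (-0.01) and Mcm10 (-0.06) changed sign, as did Dbf4 under the length and GC correction (-0.09).

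**Figure D3:**
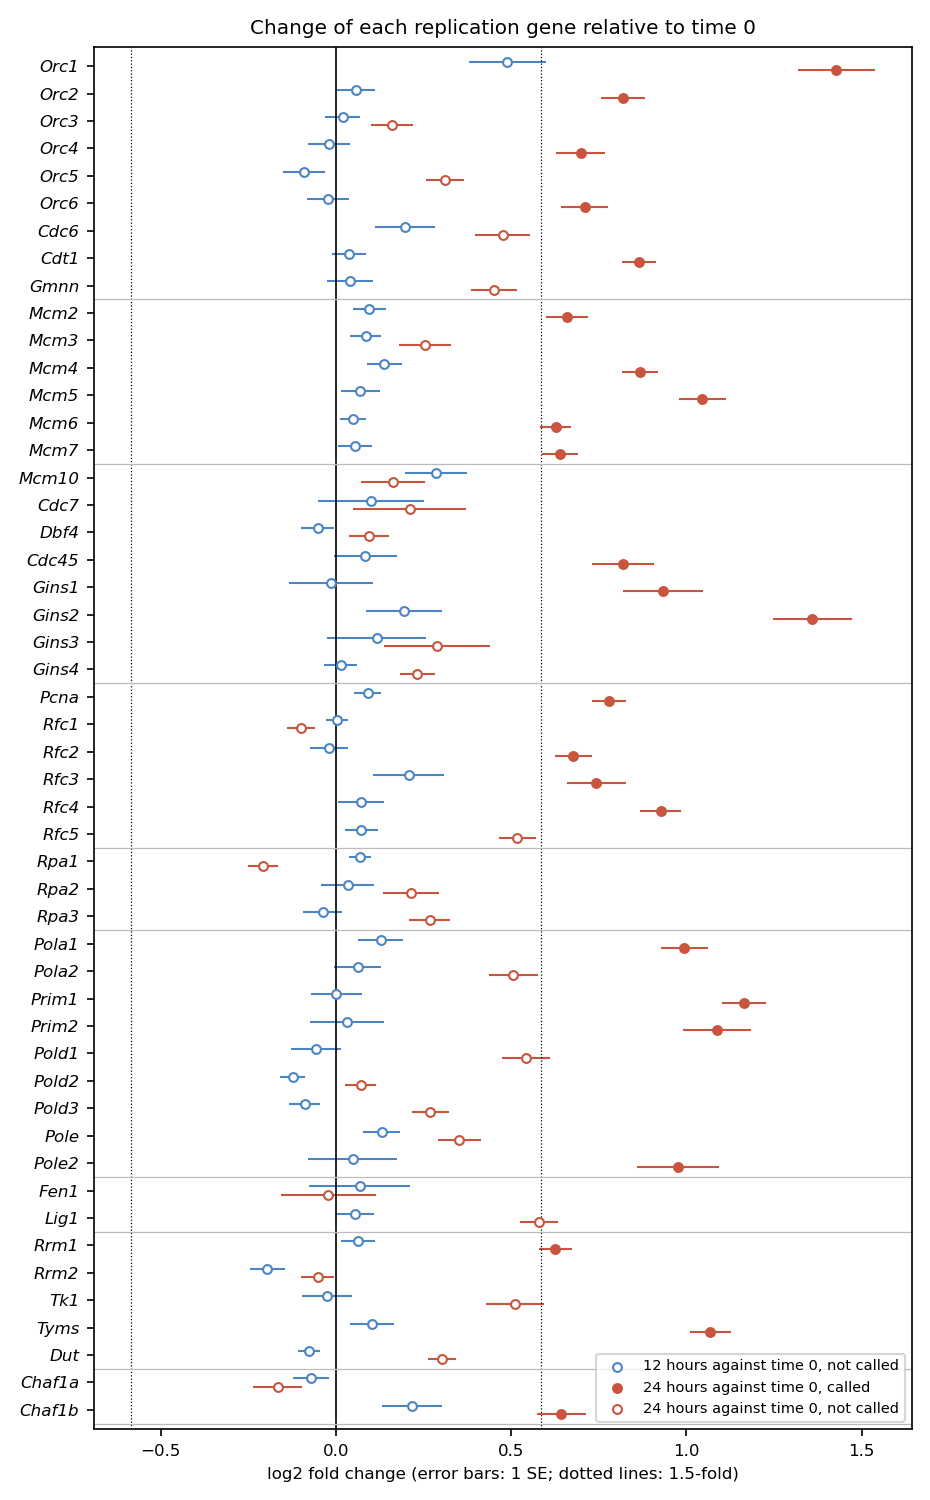
Log2 fold change of each of the 50 genes relative to time 0 at 12 hours (blue) and at 24 hours (red), with bars of 1 SE derived from the edgeR test, filled where a gene was called and with dotted lines at 1.5-fold. At 12 hours the values run from -0.20 (Rrm2) to 0.49 (Orc1) and none is called, and at 24 hours they run from -0.21 (Rpa1) to 1.43 (Orc1) with 24 called. Values of 24 hours move down by about the same amount for every gene under total-count scaling, which turns the sign of Orc3, Mcm10, Cdc7, Dbf4, Rpa2 and Pold2.

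PCNA forms the sliding clamp that holds polymerases on DNA, and replication factor C (RFC) loads it. Pcna mRNA was at 75.3, 81.4 and 83.1 CPM at time 0, at 83.9, 85.8 and 85.0 CPM at 12 hours and at 131.4, 139.5 and 140.5 CPM at 24 hours. The log2 fold change at 24 hours was 0.78 (SE 0.05, adjusted p = 1.0e-08, edgeR quasi-likelihood, Benjamini-Hochberg), and it was 0.56 with total counts. Of the small RFC subunits, Rfc4 rose by 0.93, Rfc3 by 0.74 and Rfc2 by 0.68 on the log2 scale, and Rfc5 had 0.52 without a call. With total counts Pcna, Rfc3 (0.52) and Rfc2 (0.45) lost their call, and with the length and GC correction Rfc5 (0.64) was called. Rfc1, the large subunit, had 118.2, 114.8 and 117.7 CPM at time 0 and 111.0, 106.5 and 109.5 CPM at 24 hours, lower in every library (log2 fold change -0.10, SE 0.04, adjusted p = 0.036). Rfc4 went from 19.3, 18.7 and 20.02 CPM to 36.7, 35.5 and 38.0 CPM. The log2 ratio of Rfc4 to Rfc1 within a library ran from -2.62 to -2.56 (time 0), from -2.62 to -2.41 (12 hours) and from -1.60 to -1.53 (24 hours), a difference of 1.03 between the means of 24 hours and time 0.

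Replication protein A, the trimer that coats single-stranded DNA in replication and in repair, had no called subunit. Rpa1 (ENSMUSG00000000751.13, chromosome 11, 75298166 to 75348324), its large subunit, was at 265.8, 251.3 and 262.5 CPM at time 0, at 271.4, 271.6 and 272.4 CPM at 12 hours and at 225.1, 216.8 and 233.0 CPM at 24 hours. The 24 hour libraries lay below all others (log2 fold change -0.21, SE 0.04, adjusted p = 6.2e-04, edgeR quasi-likelihood, Benjamini-Hochberg), the lowest of the 50 genes. Rpa3, the small subunit, was at 20.6, 21.5 and 20.7 CPM at time 0 and at 26.2, 24.6 and 24.8 CPM at 24 hours, without overlap but under 1.5-fold (log2 fold change 0.27, SE 0.06, adjusted p = 0.0012, edgeR quasi-likelihood, Benjamini-Hochberg), and its log2 ratio to Rpa1 was higher in each library of 24 hours (-3.23 to -3.10) than in those of time 0 (-3.69 to -3.55). With the length and GC correction and the replicate block Rpa3 was at 0.0069 (adjusted p = 0.93, edgeR quasi-likelihood, Benjamini-Hochberg), the lowest of its alternatives. Rpa2 had 0.21 (SE 0.08), with overlapping libraries, and -0.01 with total counts.

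Among the polymerases and primase, 4 of 9 genes were called higher, where 12% of all tested genes were. Prim1 (ENSMUSG00000025395.14, chromosome 10, 128015168 to 128030037), the catalytic subunit of primase, was at 14.4, 15.9 and 15.4 CPM at time 0, at 16.5, 14.2 and 15.0 CPM at 12 hours and at 34.0, 35.6 and 33.0 CPM at 24 hours. The 12 hour libraries surrounded those of time 0, and at 24 hours the log2 fold change was 1.17 (SE 0.06, adjusted p = 2.7e-09, edgeR quasi-likelihood, Benjamini-Hochberg). Prim2, the large primase subunit, rose by 1.09 and Pola1, the catalytic subunit of polymerase alpha, by 0.99 on the log2 scale, whereas Pola2, the second subunit of polymerase alpha, had 0.51. Pole2 of polymerase epsilon rose from 3.67 ± 0.38 to 7.23 ± 0.46 CPM (log2 fold change 0.98), and Pole, its catalytic subunit, had 0.35. Of the polymerase delta genes, Pold1 had 0.54, Pold3 0.27 and Pold2 0.07, the lowest value of this role. Pold2 was at 83.1, 80.7 and 85.9 CPM at time 0, at 74.6, 77.6 and 76.3 CPM at 12 hours and at 84.9, 86.9 and 90.2 CPM at 24 hours, so that it was lowest at 12 hours and its ranges at 0 and 24 hours overlapped. With the length and GC correction Pold1 (0.85), Pole (0.66) and Pola2 (0.59) passed 1.5-fold, and with total counts Pold2 was at -0.15.

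Neither gene of the pair that finishes lagging strands was called. Lig1, the ligase that seals Okazaki fragments, went from 43.4, 44.8 and 48.5 CPM to 65.4, 71.3 and 67.7 CPM, and its log2 fold change of 0.58 (SE 0.05, adjusted p = 5.1e-07, edgeR quasi-likelihood, Benjamini-Hochberg) fell just short of 1.5-fold, while it was called with DESeq2 (0.59) and with the length and GC correction (0.72). On the other side of this threshold the called members with the smallest changes were Rrm1 (0.63) and Mcm6 (0.63). Fen1, the flap endonuclease, was at 3.46, 3.37 and 3.30 CPM at time 0 and at 3.51, 2.95 and 3.53 CPM at 24 hours (log2 fold change -0.02, SE 0.14), which overlap, and its sign turned when single libraries were left out. Of the exonic bases of Fen1 78.8% also belong to the gene Gm10143 on the opposite strand, and per kilobase Fen1 was the lowest of the 50 genes at 24 hours (1.37 CPM).

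Of the 5 genes of nucleotide supply, 2 were called higher, where 12% of all tested genes were. Tyms encodes thymidylate synthase, which makes dTMP, and was at 16.4, 15.7 and 16.9 CPM at time 0, at 17.7, 17.8 and 17.1 CPM at 12 hours and at 34.0, 33.4 and 35.5 CPM at 24 hours. Its log2 fold change at 24 hours was 1.07 (SE 0.06, adjusted p = 3.6e-09, edgeR quasi-likelihood, Benjamini-Hochberg). Rrm1 and Rrm2 encode the large and the small subunit of ribonucleotide reductase. Rrm1 rose from 87.6 ± 4.4 to 135.1 ± 4.3 CPM (SD, n = 3; log2 fold change 0.63, and 0.40 without a call with total counts). Rrm2 was at 173.4, 190.5 and 194.7 CPM at time 0, at 166.3, 148.7 and 171.3 CPM at 12 hours and at 178.6, 183.3 and 176.9 CPM at 24 hours (log2 fold change -0.05, SE 0.05, adjusted p = 0.34). The log2 ratio of Rrm1 to Rrm2 ran from -1.15 to -1.04 (time 0), from -0.86 to -0.81 (12 hours) and from -0.45 to -0.34 (24 hours), with no overlap between any 2 times. Tk1, the thymidine kinase of the salvage pathway, had 0.51 and Dut, which removes dUTP, had 0.30, both without a call, and Tk1 passed with the length and GC correction (0.69).

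Chromatin assembly factor 1 places histones on new DNA. Chaf1b, its middle subunit, rose from 13.7, 14.6 and 13.1 CPM at time 0 to 21.03, 22.5 and 21.03 CPM at 24 hours (n = 3; log2 fold change 0.64, SE 0.07, adjusted p = 2.3e-06, edgeR quasi-likelihood, Benjamini-Hochberg). Chaf1a, its large subunit, was at 42.7, 43.4 and 47.2 CPM at time 0 and at 35.6, 43.6 and 39.4 CPM at 24 hours, with an overlap (log2 fold change -0.17, SE 0.07, adjusted p = 0.048). With total counts Chaf1b was at 0.42 and lost its call. The sign of Chaf1a turned with the length and GC correction (0.19), and 52.5% of the exonic bases of Chaf1a also belong to Ubxn6 on the opposite strand, whose log2 fold change was 0.30. The log2 ratio of Chaf1b to Chaf1a ran from -1.85 to -1.58 (time 0), from -1.53 to -1.34 (12 hours) and from -0.96 to -0.76 (24 hours).

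**Figure D4:**
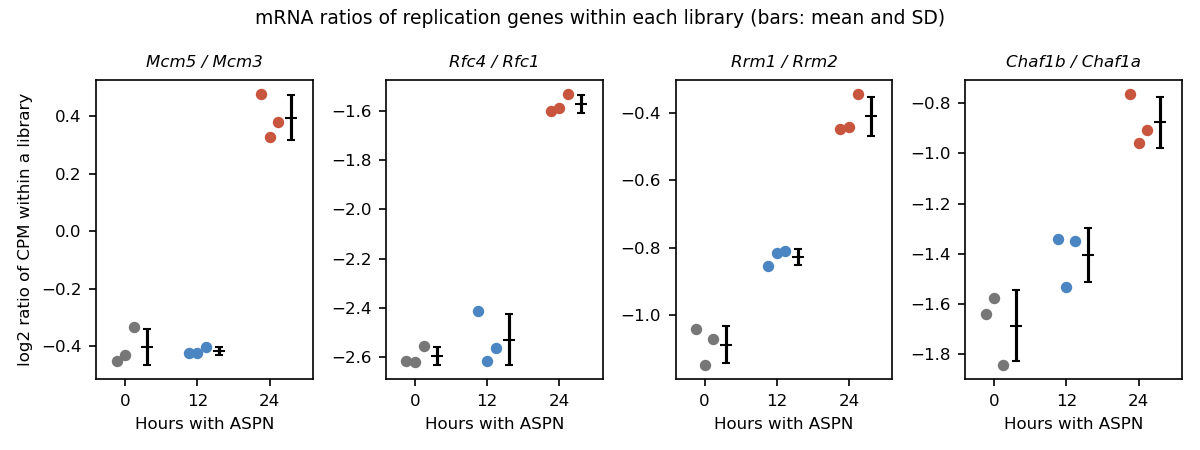
Log2 ratio of the CPM of 2 genes whose products work in the same complex, in each library (points) with the mean and SD of 3 libraries (black bars), against hours with ASPN. The 24 hour libraries lie above all others for Mcm5 to Mcm3, Rfc4 to Rfc1, Rrm1 to Rrm2 and Chaf1b to Chaf1a, with differences of 0.80, 1.03, 0.68 and 0.81 between the means of 24 hours and time 0. A scaling factor per library leaves these ratios unchanged. The length and GC correction acts gene by gene and can move them, and it turned the log2 fold change of Chaf1a at 24 hours from -0.17 to 0.19.

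At 12 hours against time 0 the members' log2 fold changes ran from -0.20 to 0.49, 36 lay above and 14 below 0, and their median was 0.05, against -0.00 over all tested genes. The median rested on single libraries, since it was 0.013 without the first and 0.086 without the third library of time 0, 0.083 without the second and 0.023 without the third library of 12 hours. Without a threshold on the fold change, 3 members had an adjusted p of 0.05 or less (6.0% of 50, where 10.3% of all tested genes had it, 6.85% higher and 3.47% lower), and 10 had an unadjusted p below 0.05 (20% of 50, where 21.4% of all tested genes had it). These 3 were Orc1 with 0.49 (SE 0.11, adjusted p = 0.0065), Rrm2 with -0.20 (SE 0.05, adjusted p = 0.015) and Pold2 with -0.12 (SE 0.04, adjusted p = 0.033; edgeR quasi-likelihood, Benjamini-Hochberg, for each). With the second library of time 0 left out Orc1 was at 0.59 and was called. DESeq2 also called 0 members at this time. The libraries of 12 hours lay above those of time 0 without overlap for 5 members and below for 4 (13.7% and 13.4% of all tested genes).

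Between 12 and 24 hours, a comparison that shares its 24 hour libraries with that against time 0, 22 members were called higher and 0 lower, where 10.4% of the 11394 tested genes were called higher and 15.3% lower (25.7% in all). With total counts 11 members were called higher, as were 484 of all tested genes, and 2830 of these were lower. Without the fold threshold 43 members were higher and 1, Rpa1 (-0.25, SE 0.04), was lower at an adjusted p of 0.05 or less, as were 35.7% and 35.6% of all tested genes (71.3% in all). The median was 0.55 over the members and 0.00 over all tested genes. Gins2 (1.19) and Prim1 (1.19) had the largest log2 fold changes, ahead of Prim2 (1.08), Mcm5 (1.00) and Tyms (0.99), and Orc1 had 0.96. Called in both comparisons of 24 hours were 21 members, and the share of all tested genes called in both was not computed. Chaf1b, Rfc3 and Rrm1 were called against time 0 alone and Pold1 against 12 hours alone, each of them with a change close to 1.5-fold in the other comparison or, for Chaf1b, with 0.45. Mcm2 (0.59) stood at the threshold and fell below it with total counts (0.36), with DESeq2 (0.58) and without the second library of 12 hours (0.56). The libraries of 24 hours lay above those of time 0 for 37 members and below for 2 (35.9% and 38% of all tested genes), and above those of 12 hours for 41 members and below for 2 (35.8% and 38.1%).

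**Figure D5:**
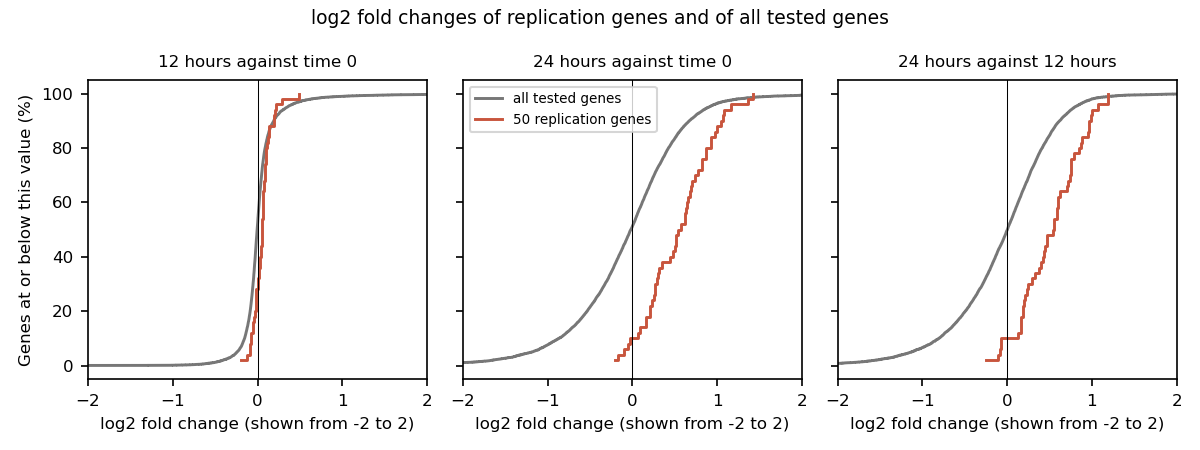
Cumulative share of genes (percent) at or below each log2 fold change, for the 50 replication genes (red) and all tested genes (gray), in the 3 comparisons, with values beyond 2 in either direction not shown. The lines lie close together at 12 hours (medians 0.05 and -0.00), and the red line lies to the right at 24 hours against time 0 (0.56 and -0.02) and against 12 hours (0.55 and 0.00), a distance that total-count scaling leaves at 0.58 and 0.55.

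Per kilobase of exon the 50 genes spanned a wide range. Dut was the highest at each time (99.0 CPM per kilobase at time 0 and 122.1 at 24 hours), followed by Rrm2 (67.2 and 64.8). Next came Rpa1 at time 0 (46.6) and Pcna at 24 hours (57.1), where Rpa1 was at 40.3. The lowest at time 0 were Gins3 (1.20), Pole2 (1.27) and Mcm10 (1.34), close to each other. The median exonic length was 4226 bases for the members and 4477 for all tested genes, and the median GC content was 48.2% and 49.9%, so the members were near the bulk of genes in both. The members called higher at 24 hours had medians of 3930 bases and 46.1% GC, and the members not called had 4635 bases and 49.5%. Replicates of the members varied with a median coefficient of variation of 5.91% at time 0, 5.58% at 12 hours and 3.83% at 24 hours, against 4.53%, 3.75% and 5.76% over all tested genes. The first library of time 0 had the lowest summed level of the 9.

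Some of the counts may hold reads of other genes. Transcripts of another gene were at least 95% identical over 300 bases or more for 6 members (Mcm7, Pcna, Tyms, Cdc6, Rfc5 and Rrm2), most of them processed pseudogenes, such as Pcna-ps2 (99.2% over 781 bases) and Gm5487 for Mcm7 (97.7% over 2157 bases). Exons of 8 members shared 10% or more of their bases with a gene on the opposite strand, among them Orc2 with Nif3l1 (29.8%; log2 fold change of Nif3l1 -0.61) and Rfc4 with Eif4a2 (12.7%; 0.23). The part of these overlaps in the values was not tested.

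Replication factors outside the 50 genes were read from a list of 38 genes of the fork, of nucleotide supply and of histone deposition, all of which were tested. At 24 hours against time 0, 11 of the 38 were called higher and 1 lower, where 12% and 16.8% of all tested genes were, with a median of 0.32 (5 higher, 3 lower and a median of 0.09 with total counts), and at 12 hours 0 were called, with a median of 0.01 and 5 genes at an unadjusted p below 0.05 (13.2%, where 21.4% of all tested genes had it). Dscc1, part of an alternative clamp loader for sister chromatid cohesion, was highest, with 1.85, 2.01 and 2.07 CPM at time 0 and 5.22, 6.41 and 5.77 CPM at 24 hours (log2 fold change 1.55, SE 0.14, adjusted p = 2.7e-07, edgeR quasi-likelihood, Benjamini-Hochberg). Donson, a factor that helps to assemble the active helicase, had 1.02, from a mean of 6.71 to 13.6 CPM. Pclaf, which binds PCNA, had 0.85 and Ticrr, which acts in origin firing, had 0.67, both called. Among the genes with values near 0 and overlapping libraries were Rrm2b (-0.05), an alternative small subunit of ribonucleotide reductase, and Timeless (0.02), a fork protection factor whose partner Tipin rose by 0.66 on the log2 scale. Chtf8 was the called gene that fell, from a mean of 0.57 to 0.23 CPM, with 0.17 to 0.34 CPM in the libraries of 24 hours.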

How the data were processed

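RNA-Seq counts of 9 MyC-CaP libraries were used (3 each at 0, 12 and 24 hours). According to the labels and the study's methods, the authors prepared TruSeq mRNA libraries, trimmed paired-end reads with Cutadapt (4.5 in the submitters' notes), aligned them with STAR 2.7.11a to GRCm38.p6 and counted them per gene with featureCounts 2.0.2. The deposited values are raw counts of 15384 protein-coding genes, not normalized. Whether strand was used in counting is not given in the sources used here.

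The 50 members were taken by symbol, and members and gene lists were chosen with earlier results of these data known. For each comparison, all genes of the 6 libraries were filtered with filterByExpr, scaled with TMM and tested with edgeR 4.0.16 (quasi-likelihood test without a block, Benjamini-Hochberg adjustment over all tested genes, R 4.3.3). A gene was called where its adjusted p was at most 0.05 and its change at least 1.5-fold. For the text, CPM were computed with TMM factors of the 9 libraries. The SE is that of the log2 fold change, derived as its absolute value divided by the square root of the F value of the edgeR test. In each role the genes with the highest and the lowest log2 fold change at 24 hours, and all MCM genes, are named with their values. Positions, exonic length and GC content come from GENCODE M21, which held 15374 of the identifiers, 15242 of them at the same coordinates. Promoters are RefSeq sequences of GRCm38.p6.

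Pairs of libraries of one time differed beyond counting noise (chi-square per degree of freedom 3.41 to 17.5). The labels call them biological replicates of 1 line, and p-values measure the spread between these cultures. The study's methods state that cells were plated in triplicate, so the cultures of a time may be wells of a single plating. Whether they come from separate experiments is not given. Alternatives were DESeq2 1.42.0, RLE factors, total counts, no filter on low counts, a joint fit of all 9 libraries, a block for the replicate number, a loess correction for exonic length and GC content (span 0.3) without and with the block, the adjusted p alone and leaving out each library in turn. The calculations were tested on simulated data. Some genes of the lists are not reported here by name.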

Additional observations from a re-analysis of the deposited data

How the results depend on the processing

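Scaling by total counts gave 14 members called higher at 24 hours against time 0 (median 0.34) and 11 against 12 hours (median 0.33), and it moved all tested genes too (medians of -0.24 and -0.22, with 698 genes called higher and 3008 lower at 24 hours against time 0, in place of 1374 and 1924). It reversed Orc3 (-0.063), Mcm10 (-0.061), Cdc7 (-0.014), Dbf4 (-0.13), Rpa2 (-0.0092) and Pold2 (-0.15) at 24 hours against time 0, and Mcm3 (-0.034) and Rrm2 (-0.057) among the 18 members for which single values were computed at 24 against 12 hours. This scaling moves every gene of a comparison by about the same amount. The length and GC correction gave 28 members called against time 0 (median 0.63, and 0.63 together with the replicate block). Under this correction 1360 of the 11440 tested genes were called higher and 1619 lower. It reversed Orc3 (-0.035 without and -0.035 with the block), Dbf4 (-0.089 without and -0.088 with it) and Chaf1a (0.19 without and 0.19 with it), and the cause was not tested. With the adjusted p alone, 1 member was higher and 2 were lower at 12 hours, 40 were higher and 3 lower at 24 hours against time 0, and 43 were higher and 1 lower against 12 hours, since fewer conditions then apply. With DESeq2, RLE factors, no filter on low counts, the joint fit and the block, calls changed for Lig1 at 24 hours against time 0 and, among the same 18 members, for Mcm2, Mcm6 and Rrm1 against 12 hours (at 12 hours against time 0, 3 members were followed singly).

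Leaving out each library in turn gave 0 to 1 members called higher at 12 hours, 24 to 26 at 24 hours against time 0 and 18 to 25 against 12 hours, with medians of 0.47 to 0.58 for the last. The lowest of these counts and medians came without the second library of 12 hours, where Mcm2 (0.56), Mcm6 (0.58), Mcm7 (0.57) and Pold1 (0.52) lost their call. Fen1 ranged from -0.068 to 0.060, and it was above 0 without the first library of time 0 (0.02) or the second of 24 hours. Orc1 at 12 hours passed 1.5-fold without the second library of time 0 (0.59). At 24 hours against time 0, 26 of the 50 members kept their direction and call in every alternative other than the adjusted p alone, with which 19 members that were not called passed.

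Libraries with the same replicate number did not deviate together (correlations of their deviations over all tested genes averaged -0.0287, -0.0746 and 0.0194 in the 3 comparisons), so the numbers were not taken to pair the cultures. With the replicate number as a block, 0, 24 and 22 members were called higher, with medians of 0.05, 0.56 and 0.55. The standard errors of the members at 24 hours against time 0 (0.04 to 0.16 on the log2 scale) set what 3 cultures a time can resolve.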

Other observations

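Genes that act before and after replication were read from 3 further lists. Of the E2F and DP factors, which bind the promoters of many replication genes, 9 of 10 were tested, and E2f2 (0.87), E2f1 (0.81), E2f7 (0.77) and E2f5 (0.63) were called higher at 24 hours against time 0, with 0 called lower (12% of all tested genes were called higher and 16.8% lower). With total counts 2 of the list were called higher, and its median moved from 0.18 to -0.05. E2f2 was at 4.67, 4.39 and 5.31 CPM at time 0 and at 9.14, 9.85 and 7.35 CPM at 24 hours, without overlap. E2f3, the lowest of the list, was at 20.1, 22.0 and 21.8 CPM at time 0 and at 17.5, 18.1 and 15.8 CPM at 24 hours (log2 fold change -0.31, SE 0.07).

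Among 14 cyclins, kinases and inhibitors of the G1 to S transition, 3 were called higher at 24 hours (Cdkn1a, Rb1 and Ccna2) and 2 lower (Cdkn2c and Ccnd1), or 21.4% and 14.3% against 12% and 16.8% of all tested genes, with a median of 0.26 (1 higher, 2 lower and a median of 0.04 with total counts). Cdkn1a, which encodes the inhibitor p21, was at 32.8, 32.9 and 32.4 CPM at time 0, at 30.2, 30.1 and 34.8 CPM at 12 hours and at 84.9, 120.1 and 96.7 CPM at 24 hours (log2 fold change 1.62, SE 0.10). Cdkn2c, which encodes an inhibitor of CDK4 and CDK6, was at 73.5, 72.4 and 73.2 CPM at time 0, at 57.9, 51.6 and 58.7 CPM at 12 hours and at 16.5, 18.3 and 19.6 CPM at 24 hours (log2 fold change -2.01, SE 0.06). Both changes were larger than that of any of the 50 replication genes at 24 hours, and their directions were opposite.

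Of 14 mitotic genes, 2 were called higher at 24 hours (Bub1 with 1.09 and Cenpe with 0.82) and 0 lower, a share of 14.3% near the 12% of all tested genes called higher, with a median of 0.22 (2 higher, 3 lower and a median of -0.01 with total counts). Bub1, a kinase of the spindle checkpoint, was at 26.8, 31.1 and 29.1 CPM at time 0 and at 63.3, 59.8 and 62.2 CPM at 24 hours. Plk1, a kinase of mitotic entry and the lowest of the list, was at 31.2, 34.3 and 36.9 CPM and at 26.1, 24.7 and 25.7 CPM (log2 fold change -0.42, SE 0.06). At 12 hours 12 of the 14 lay below 0, as did 5921 of the 11410 tested genes, with a median of -0.08, and 3 were lower at an adjusted p of 0.05 or less (Ccnb1, Ccnb2 and Cdc20), as were 3.47% of all tested genes.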
